A study of Homo sapiens with 6 samples.

Results

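The aminoacyl-tRNA synthetases were taken by name from the deposited gene table: every symbol made of an amino acid letter and ARS, with or without a closing 1 or 2, together with EPRS1, EARS2, FARSA, FARSB and FARS2. This gave 37 of 50868 genes, of which the 17 with symbols ending in 2 encode mitochondrial enzymes and the other 20 cytosolic enzymes. The rule reads symbols only, and the set was proposed with earlier results of these data known. The RNA came from Huh7, a human hepatocellular carcinoma line, described as wild type and cultured in DMEM with 10% fetal bovine serum. Cells received the cell-permeating peptide P-T3H2 in 3 libraries, or P-T3H2-2A as the control peptide in 3 others, each at 20 µM over 5 days. P-T3H2 is described in the study's title as stabilising the HNF4α protein, and the comparison asks how gene expression differs between the peptides. Whether replicates came from separate cultures is not stated, so p-values measure the spread among these libraries alone, and that spread may be technical.

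Each synthetase joins an amino acid to its tRNA, the step that supplies the ribosome with charged tRNA. Most cells keep separate sets of these enzymes for the cytosol and for mitochondria, both encoded in the nucleus, although GARS1 and KARS1 each encode the enzyme of both compartments. Synthetases fall into a pair of unrelated structural classes, and several cytosolic ones are held in a large multi-synthetase complex by the scaffold proteins AIMP1, AIMP2 and EEF1E1. The transcription factor ATF4, made when amino acids are scarce or the endoplasmic reticulum is stressed, is known to activate many cytosolic synthetase genes through a composite C/EBP-ATF element.

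Promoter windows of 300 bases, from 250 before to 50 after the start, were available from RefSeq (GRCh38.p14) for 30 of the 37 genes. Those without a window included LARS1, VARS1, YARS1, AARS2 and VARS2. The letters TGATGNAA, a core of the C/EBP-ATF element, were searched on both strands. They stood in 7 of 16 cytosolic genes (43.8%) and 1 of 14 mitochondrial genes (7.14%), against 1217 of 27305 genes in the whole promoter table (4.46%). Counted by window, since some genes have more than 1 start, the shares were 33.3% of 21 cytosolic, 5.56% of 18 mitochondrial and 3.62% of all 35116 windows. The matches are printed to show how alike the cytosolic ones are, each with 11 flanking bases per side on the strand that reads TGATG, and with the matched letters in capitals.
AARS1: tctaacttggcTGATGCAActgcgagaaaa
CARS1: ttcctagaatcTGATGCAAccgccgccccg
GARS1: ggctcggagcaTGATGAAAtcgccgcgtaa
IARS1: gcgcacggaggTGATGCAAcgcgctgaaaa
MARS1: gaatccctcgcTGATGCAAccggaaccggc
NARS1: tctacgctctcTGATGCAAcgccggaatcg
TARS1: gctggaccagcTGATGCAAtcgaaaggcgc
YARS2: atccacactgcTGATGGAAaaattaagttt

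Of the 7 cytosolic matches, 6 read TGATGCAA, a form found in 1.08% of all genes with a window, and GARS1 alone among them read TGATGAAA. The matches lay at chr16:70289675-70289704 (AARS1), chr11:3057407-3057436 (CARS1), chr7:30594834-30594863 (GARS1), chr9:92293692-92293721 (IARS1), chr12:57488053-57488082 (MARS1), chr18:57621804-57621833 (NARS1), chr5:33440956-33440985 (TARS1) and chr12:32756076-32756105 (YARS2), the AARS1, CARS1 and IARS1 stretches on the plus strand and the others on the minus strand. Counted from the RefSeq start, with bases before it negative, the match began at -33 in GARS1, -13 in IARS1, -4 in MARS1, -2 in CARS1, 3 in TARS1 and 15 in NARS1. It began farther upstream in AARS1 (-187) and YARS2 (-197). A match describes letters in a window and is not evidence of binding. Among synthetases with a window, FARSB had the largest fold change between the peptides and IARS1 the largest of those with a match, so the 250 bases before their starts are printed as well (FARSB, chr2:222656093-222656342, and IARS1, chr9:92293698-92293947, both minus strand), with TTGCATCA, the match as read on the gene's strand, in capitals.
FARSB: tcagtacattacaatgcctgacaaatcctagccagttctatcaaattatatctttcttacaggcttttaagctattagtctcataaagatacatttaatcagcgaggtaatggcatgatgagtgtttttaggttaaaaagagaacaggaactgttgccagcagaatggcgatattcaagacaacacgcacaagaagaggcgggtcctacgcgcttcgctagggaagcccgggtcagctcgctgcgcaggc
IARS1: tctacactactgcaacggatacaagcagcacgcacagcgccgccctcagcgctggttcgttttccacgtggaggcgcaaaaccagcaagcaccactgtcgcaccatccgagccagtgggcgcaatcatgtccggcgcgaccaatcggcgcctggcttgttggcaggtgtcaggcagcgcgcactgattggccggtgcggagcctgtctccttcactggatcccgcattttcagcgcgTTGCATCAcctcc

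Library totals ranged from 17434442 to 21374732 counts, and every synthetase was well covered, with between 137 (FARS2) and 10940 counts per library. The library labelled P-T3H2-2A replicate 3 stood apart from its group. On the first principal component (68.6% of variance), scores were -60.3 and -58.6 for the other P-T3H2-2A libraries, 27.3 for this one and 23.8 to 34.3 for the P-T3H2 libraries. Its value was nearer to the P-T3H2 mean than to the mean of P-T3H2-2A replicates 1 and 2 for 12568 of 15946 genes (78.8%) and for 32 of the 37 synthetases. Results are therefore given for all 6 libraries as labelled and again with P-T3H2-2A replicate 3 left out, called the 5-library comparison. Because that library was left out after its place was known, p-values of the 5-library comparison are not independent evidence. The controls there are P-T3H2-2A replicates 1 and 2 alone, and fell and rose below describe that contrast only. In it, a peptide effect cannot be told apart from any other difference between those controls and the remaining libraries. Hepatoma markers were abundant in every library, with AFP at 9000 CPM or more (CPM, counts per megaread of the TMM-scaled library total). Of 8 such markers, ALB and SERPINA1 were higher and HNF4A, TF and APOB lower in the 5-library comparison, in which 22.6% of all genes tested were called higher and 22.8% lower, and AFP, APOA1 and TTR did not pass. APOB was lost in DESeq2 (adjusted p = 0.0675), which called TF lower as labelled (adjusted p = 0.0485). HNF4A stood at 123, 123 and 76.4 CPM with the control peptide against 74.5, 80.3 and 75.5 CPM.

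Of 12 markers of other cell types, CD3E, CDH5, COL1A1, DCN and KRT7 were at or near 0 and not tested, and PTPRC was under 1 CPM. In the 5-library comparison 2 of the 7 tested were lower and 2 higher, where 22.8% of all genes tested were lower and 22.6% higher. PTPRC, COL1A2 and KRT19 did not pass. The endothelial marker PECAM1 stood at 11.7, 11.5 and 2.78 CPM with the control peptide against 3.49, 3.86 and 3.15 CPM, and the macrophage marker CD68 at 2.37, 2.32 and 0.329 CPM against 0.419, 0.868 and 0.329 CPM, both lower (adjusted p = 0.000116 and 0.00334 in edgeR). SOX9 stood at 112, 119 and 289 CPM against 291, 274 and 310 CPM, and VWF at 0.173, 0 and 1.365 CPM against 1.49, 1.302 and 1.835 CPM, both higher (adjusted p = 2.67e-05 and 0.00217). The summed level of all 12 was 237 and 252 CPM in the first and second controls, 419 CPM in the third, and between 392 and 420 CPM with P-T3H2, mostly from the biliary genes SOX9 and KRT19, and the part of these markers in the results below was not tested.

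Cytosolic synthetase mRNAs were, per length, more abundant than mitochondrial ones in these cells. On the deposited FPKM scale, averaged over the 6 libraries, the cytosolic median was 16.25 and the mitochondrial median 5.82. AARS1, for alanine, was the most abundant at 80.4 FPKM, followed by IARS2 (35.5), the mitochondrial isoleucine enzyme, and then GARS1 (31.95), EPRS1 (31.85), KARS1 (29.4) and RARS1 (28.9). CARS2, for mitochondrial cysteine, was lowest at 0.93 FPKM, below WARS2 (2.30), WARS1 (2.21), EARS2 (2.11) and TARS2 (2.47). These levels depend on the gene lengths behind the FPKM, which ranged from 2347 to 23059 bases over the synthetases and were a median of 2.48 times those of the principal GENCODE transcripts (12.3 times for CARS2). Per kilobase of principal transcript, the cytosolic median was 44.6 and the mitochondrial median 12.8 CPM. AARS1 was still highest on that scale at 134.5 and FARS2 lowest at 4.58, while CARS2 stood at 11.4.

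**Figure D1:**
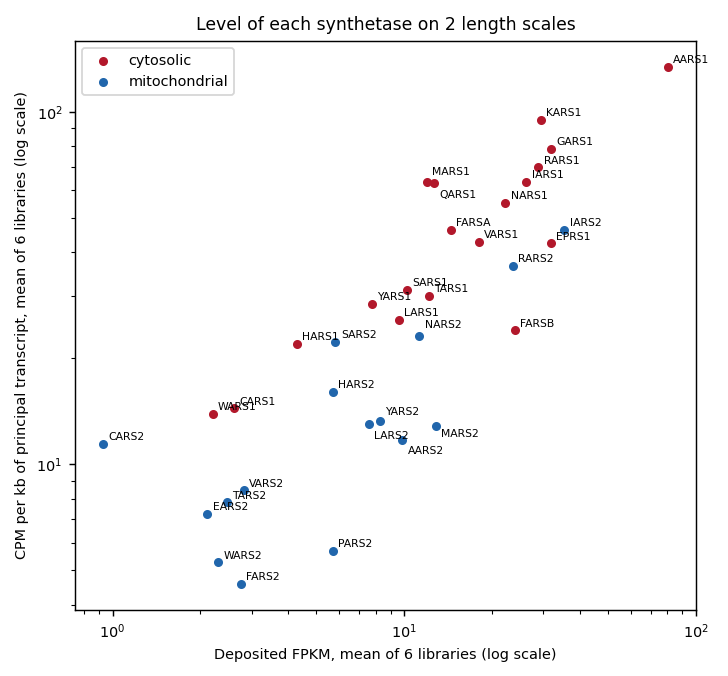
Mean level of 35 of the 37 synthetases over 6 libraries on the deposited FPKM scale (horizontal, log scale) and as CPM per kilobase of the principal transcript (vertical, log scale). Cytosolic enzymes (red) sit towards the upper right, led by AARS1 at 80.4 FPKM, and CARS2 lies far to the left of its place on the vertical scale.

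As labelled, no synthetase passed the test between P-T3H2 and P-T3H2-2A, but nearly all had lower values with P-T3H2. Of 37, 36 had a log2 fold change below 0, against 50.4% of all 15946 genes tested, and NARS2, the mitochondrial asparagine enzyme, had a value of 0.01. The median log2 fold change was -0.26 over the cytosolic and -0.23 over the mitochondrial genes, against -0.0039 over all genes tested. The adjusted p in edgeR was 0.275 at the lowest, and 0 synthetases were called, where 1 gene of the whole table was (0.00627%). At an unadjusted p under 0.05 edgeR found 10 of 20 cytosolic and 4 of 17 mitochondrial genes lower, where 11.4% of all genes tested were lower at that level, and DESeq2, with 0.716% of all genes called, also called 0 synthetases. In 6 cytosolic genes (among them AARS1, HARS1, LARS1, NARS1 and SARS1) and 2 mitochondrial genes (EARS2, FARS2) the groups did not overlap, each being lower with P-T3H2, as were 11.6% of all genes tested. These are bulk measurements, in which fewer cells with an mRNA and less of it per cell cannot be told apart.

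**Figure D2:**
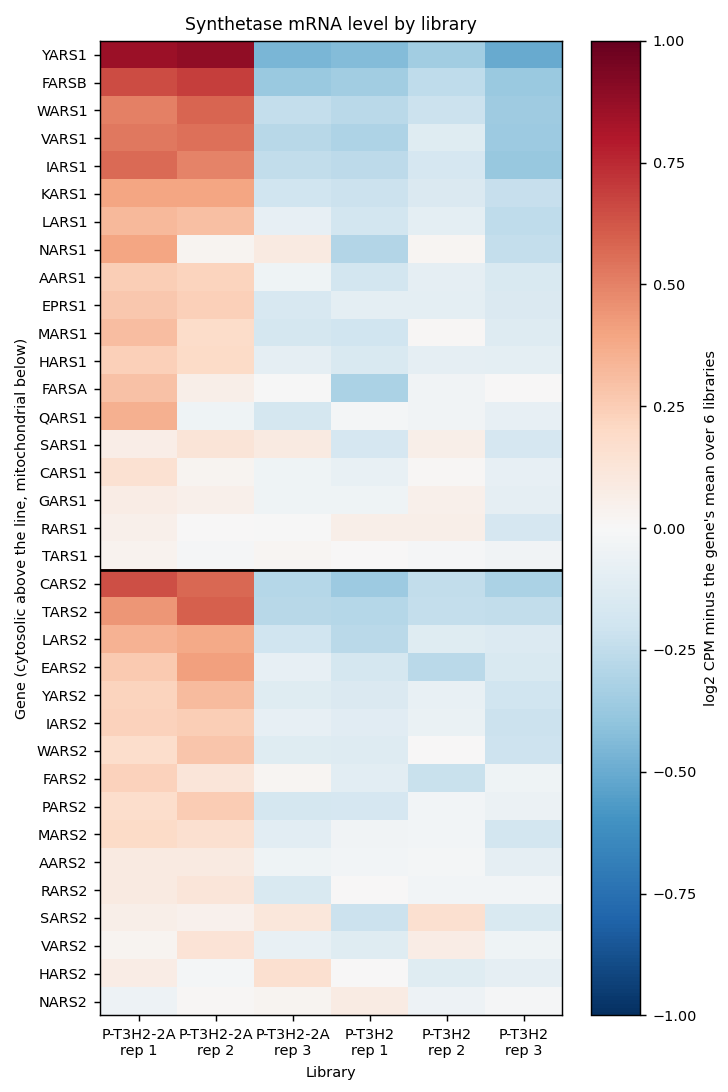
Level of 35 of the 37 synthetases (rows) in each library (columns), as log2 CPM minus the gene's mean over the 6 libraries. P-T3H2-2A replicates 1 and 2 are high for most genes, led by YARS1, and P-T3H2-2A replicate 3 lies nearer to the P-T3H2 libraries for 30 of the 35.

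In the 5-library comparison 12 of 20 cytosolic and 10 of 17 mitochondrial synthetases were called lower with P-T3H2, and none higher. The controls there were P-T3H2-2A replicates 1 and 2 alone. Medians were -0.37 and -0.30 on the log2 scale (median over all genes 0.0028). Of all 16281 genes tested, 45.4% were called in that comparison, 22.6% higher and 22.8% lower. The cytosolic (60.0%) and mitochondrial (58.8%) shares were above the background for lower calls, which was not matched for expression level. The difference between compartments was not tested. DESeq2 on the 5 libraries called 13 cytosolic and 8 mitochondrial genes lower, against 19.1% of all genes. Against P-T3H2-2A replicate 3 alone, 0 synthetases were called by edgeR where 0.368% of all genes were, and 0 at an unadjusted p under 0.05 where 4.34% of all genes were. Synthetases called in the 5-library comparison that differed by at least 1.5-fold included the cytosolic FARSB, IARS1, KARS1, VARS1, WARS1 and YARS1. The mitochondrial ones included CARS2 and TARS2, and the share of all genes meeting both rules was not computed.

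**Figure D3:**
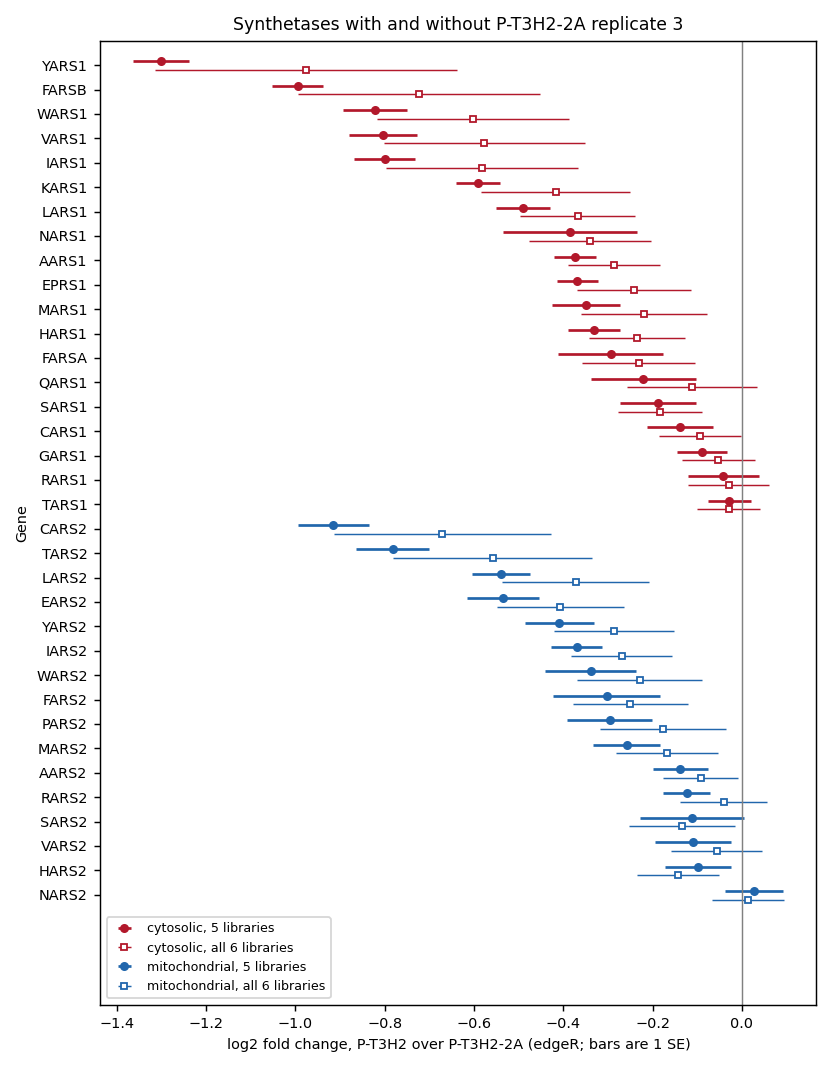
Log2 fold change of 35 of the 37 synthetases, P-T3H2 over P-T3H2-2A, from edgeR with 1 standard error, for the 5-library comparison (filled) and for all 6 libraries (open). All points but those of NARS2 lie below 0, and the filled points reach -1.301 for YARS1 and -0.91 for CARS2.

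YARS1, the cytosolic tyrosine enzyme, which when cleaved also has cytokine-like fragments, had the largest change of the 37. It stood at 151.5, 155 and 61.0 CPM with the control peptide. With P-T3H2 it stood at 61.9, 66.0 and 59.0 CPM (ENSG00000134684, chromosome 1, 32775237 to 32818153, minus strand, GRCh38). P-T3H2-2A replicates 1 and 2 were more than 2-fold above the other 4 libraries, and replicate 3 lay inside the P-T3H2 range. YARS1 fell 2.46-fold in the 5-library comparison (edgeR adjusted p = 2.35e-05). Over all 6 libraries the log2 fold change was -0.98 (SE 0.339, adjusted p = 0.275).

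FARSB encodes the beta subunit of the cytosolic phenylalanine enzyme, and FARSA the alpha subunit, with which it forms a tetramer. FARSB stood at 120, 123.5 and 59.2 CPM with the control peptide and 60.1, 63.9 and 59.2 CPM with P-T3H2 (ENSG00000116120, chromosome 2, 222570536 to 222656337, minus strand). FARSA stood at 102, 87.1 and 83.0 CPM against 67.1, 81.4 and 83.6 CPM, so that the groups overlapped. FARSB fell 1.99-fold in the 5-library comparison (adjusted p = 4.29e-05), where FARSA had a log2 fold change of -0.29 (95% interval -0.58 to -0.01) and did not pass (adjusted p = 0.0902). As labelled the values of FARSB and FARSA were -0.72 and -0.23.

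WARS1, VARS1 and IARS1, which charge tryptophan, valine and isoleucine, were among the cytosolic genes that differed by at least 1.5-fold. WARS1, known to be interferon-inducible, stood at 58.6, 61.8 and 35.0 CPM with the control peptide and at 34.4, 35.7 and 32.3 CPM with P-T3H2. VARS1 stood at 256, 261 and 147 CPM against 144, 163 and 138 CPM, and IARS1 at 419.7, 401 and 239 CPM against 236, 252.5 and 218 CPM. In all 3 genes P-T3H2-2A replicate 3 lay within the range of the P-T3H2 libraries. They fell 1.77-fold, 1.75-fold and 1.74-fold in the 5-library comparison (adjusted p = 0.000171, 0.000239 and 0.000162), against labelled log2 fold changes of -0.60, -0.58 and -0.58 (adjusted p = 0.275 each). WARS1 shares 10.6% of its exon bases with genes on the opposite strand, WDR25 among them, whose reads could not be told apart without strand.

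Enzymes of the multi-synthetase complex had 6 of 8 members called lower in the 5-library comparison, and cytosolic enzymes outside it 6 of 12. Their medians were -0.43 and -0.35, and 22.8% of all genes tested were called lower there. DESeq2 on the 5 libraries called 6 and 7 lower, against 19.1% of all genes, and the difference between these subsets was not tested. KARS1, for lysine, stood at 245, 245 and 163 CPM with the control peptide and 161, 169 and 159 CPM with P-T3H2. KARS1 fell 1.51-fold in the 5-library comparison (adjusted p = 0.000144), and P-T3H2-2A replicate 3 lay within the P-T3H2 range. LARS1, for leucine, fell 1.40-fold, EPRS1, a fused glutamate and proline enzyme, 1.29-fold, and MARS1, for methionine, 1.27-fold (adjusted p = 0.000764, 0.000751 and 0.00865). MARS1 shares 12.4% of its exon bases with opposite-strand genes, among them DDIT3, itself an ATF4 response gene. QARS1, for glutamine, and RARS1, for arginine, did not pass. QARS1 stood at 226, 171 and 155 CPM with P-T3H2-2A and 173, 172 and 166 CPM with P-T3H2, so that its highest value came from P-T3H2-2A replicate 1 alone, and without that library its labelled value was 0.06.

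AARS1 stood at 549.8, 541 and 451 CPM with the control peptide and at 409, 436 and 418 CPM with P-T3H2, each control above each P-T3H2 library. It fell 1.296-fold and HARS1, for histidine, 1.26-fold in the 5-library comparison (adjusted p = 0.00077 and 0.00362). The other cytosolic genes did not pass. TARS1, for threonine, stood at 133, 129 and 132 CPM against 130.5, 129 and 127 CPM, with a 5-library log2 fold change of -0.03 (95% interval -0.14 to 0.09). GARS1, for glycine, and RARS1 had values of -0.09 (-0.22 to 0.04) and -0.04 (-0.23 to 0.15). CARS1 and SARS1, for cysteine and serine, had values of -0.14 (-0.31 to 0.04) and -0.19 (-0.39 to 0.01). NARS1, for asparagine, stood at 223, 172 and 180 CPM against 138.5, 171.5 and 144 CPM, a value of -0.39 (-0.77 to 0.0025) that did not pass (adjusted p = 0.0962), with replicates of each group spread widely.

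CARS2 and TARS2 were among the mitochondrial genes that changed most. CARS2 stood at 31.95, 30.4 and 16.8 CPM with the control peptide against 15.9, 17.3 and 16.5 CPM with P-T3H2, and TARS2, for threonine, at 28.0, 31.15 and 16.95 CPM against 16.9, 17.4 and 17.3 CPM. In both genes P-T3H2-2A replicates 1 and 2 were far above the other 4 libraries, which lay together. They fell 1.885-fold and 1.72-fold in the 5-library comparison (adjusted p = 0.000175 and 0.000373). Their labelled log2 fold changes were -0.67 and -0.56, with an adjusted p = 0.275 in edgeR for each.

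LARS2, EARS2, YARS2, IARS2, WARS2, PARS2 and MARS2 fell by 1.20-fold to 1.45-fold in the 5-library comparison. LARS2, for leucine, stood at 77.2, 78.6 and 52.7 CPM with P-T3H2-2A and 50.3, 55.55 and 55.15 CPM with P-T3H2, a 1.45-fold fall. EARS2, for glutamate, which also charges mitochondrial glutamine tRNA for later amidation, stood at 33.8, 37.5 and 26.7 CPM against 25.04, 23.4 and 25.5 CPM, with every control above every P-T3H2 library. The calls of WARS2 and PARS2 were lost in DESeq2, and those of MARS2, WARS2 and PARS2 when any 1 of several further libraries was left out. The test was not passed by AARS2, FARS2, HARS2, NARS2, RARS2, SARS2 and VARS2. NARS2 was level, at 56.2, 58.8 and 59.3 CPM against 61.8, 56.3 and 57.9 CPM, with a 5-library value of 0.03 (95% interval -0.13 to 0.18). SARS2 shares 46.2% of its exon bases with annotated genes on its own strand and VARS2 22.0%, so their counts are uncertain.

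Enzymes for the same amino acid were compared across compartments. In the 18 pairings, EPRS1 was set against both EARS2 and PARS2, and FARS2 against both FARSA and FARSB. Both partners were called lower in the 5-library comparison in 8, the cytosolic partner alone in 4, the mitochondrial alone in 2 and neither in 4. Of all genes taken singly, 22.8% were called lower there, and a share for pairs of genes was not computed. Pairings with wide gaps are named here after their values were seen. The mitochondrial value was the lower for cysteine, with log2 fold changes of -0.14 for CARS1 and -0.91 for CARS2, and for threonine, with -0.03 for TARS1 and -0.78 for TARS2. It was also the lower, by less, in other pairings, among them LARS1/LARS2, RARS1/RARS2, EPRS1/EARS2 and FARSA/FARS2. Tyrosine and valine went the other way, with -1.301 for YARS1 and -0.41 for YARS2, and -0.80 for VARS1 and -0.11 for VARS2. Differences between partners were not tested. HARS1 and HARS2 lie head to head on chromosome 5 with starts that overlap (start distance -598 bases). HARS1 fell, while HARS2, at 42.4, 39.8 and 45.0 CPM against 40.4, 37.0 and 37.8 CPM, had a value of -0.10 (95% interval -0.27 to 0.08). HARS1 shares 8.38% of its exon bases with opposite-strand genes, HARS2 among them, and HARS2 shares 11.7%. Reads from these shared bases could not be told apart without strand.

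**Figure D4:**
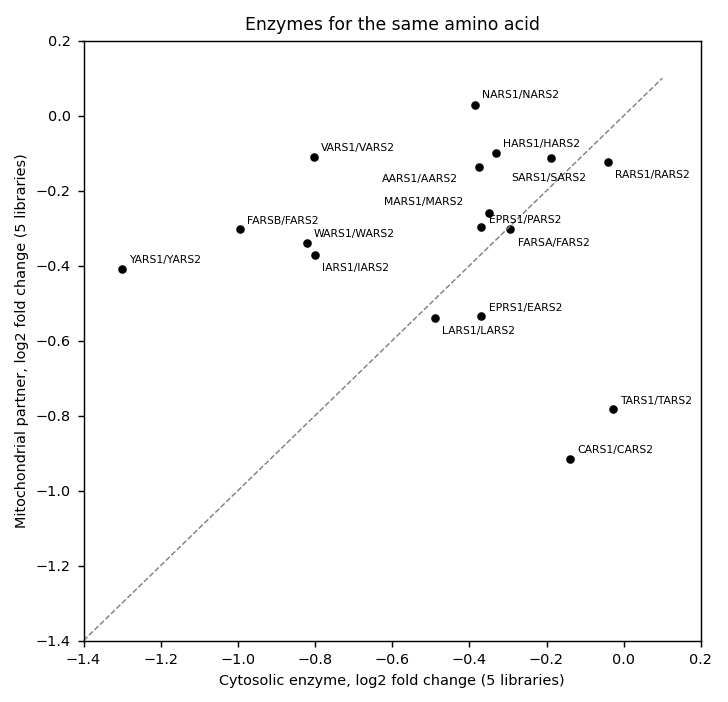
Log2 fold change (P-T3H2 over P-T3H2-2A, 5-library comparison) of the cytosolic enzyme (horizontal) against its mitochondrial partner in 17 of the 18 pairings (vertical), with equality dashed. TARS1/TARS2 and CARS1/CARS2 lie far below the line and YARS1/YARS2, VARS1/VARS2 and FARSB/FARS2 far above it.

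Synthetase genes with and without the C/EBP-ATF letters were among those that fell. Of the 7 cytosolic genes with the match, 3 (AARS1, IARS1, MARS1) fell in the 5-library comparison by edgeR. The median over the 7 was -0.35, with a range from -0.80 to -0.03. Of the 9 cytosolic genes with a window and no match 5 fell, with a median of -0.33. NARS1, which has a match, was also called lower by DESeq2 on the 5 libraries (adjusted p = 0.0344). By class, 7 of 10 cytosolic class I and 5 of 10 cytosolic class II enzymes fell, with the fused enzyme EPRS1 counted in class I alone. DESeq2 on the 5 libraries called 7 and 6 lower. Of all genes tested in edgeR, 22.8% fell in the 5-library comparison, and differences by match or by class were not tested.

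All 3 scaffold genes of the complex fell in the 5-library comparison by edgeR, where 22.8% of all genes fell. AIMP1 stood at 56.0, 56.3 and 39.0 CPM with the control peptide and 39.1, 36.7 and 40.0 CPM with P-T3H2, and AIMP2 at 49.8, 58.0 and 37.0 CPM against 32.9, 34.4 and 34.8 CPM. AIMP1, AIMP2 and EEF1E1 had log2 fold changes of -0.54, -0.66 and -0.21 there (edgeR adjusted p = 0.000659, 0.000737 and 0.0451), and the call of EEF1E1 was lost with library totals (adjusted p = 0.0523) and DESeq2 (0.0813). Labelled values were -0.39, -0.50 and -0.19, of which none passed.

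Of 10 other genes of tRNA charging and editing, 4 fell and 2 rose in the 5-library comparison, where 22.8% of all genes fell and 22.6% rose, and none passed as labelled. GATB was lost in DESeq2 (adjusted p = 0.0748). QRSL1, GATB and GATC, the subunits of the mitochondrial glutamine amidotransferase, and DTD1, which removes D-amino acids from tRNA, had values of -0.22, -0.20, -0.26 and -0.31. SEPSECS and PSTK, which make selenocysteine on its tRNA, rose by 0.42 and 0.57 (adjusted p = 0.00163 and 0.0198): SEPSECS stood at 60.8, 65.0 and 81.7 CPM against 85.9, 80.4 and 87.1 CPM. TARS3, MTFMT, AARSD1 and DTD2 did not pass, with values of -0.03, -0.12, -1.15 and -0.21. AARSD1 stood at 36.2, 11.6 and 7.86 CPM against 8.75, 13.45 and 9.98 CPM, its value resting on P-T3H2-2A replicate 1. The tRNA exporter XPOT, the exporter XPO5 and the mitochondrial elongation factor TUFM fell by 0.19, 0.53 and 0.22, and the cytosolic elongation factor EEF1A1 had a value of 0.02.

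Among 29 tested genes of the ATF4 response, members moved in both directions. In the 5-library comparison 15 fell (51.7%, against 22.8% of all genes) and 8 rose, a share near the 22.6% of all genes, with a median of -0.19, and as labelled none passed in edgeR, with SLC7A5 and DDIT4 called lower by DESeq2. SLC7A5, the leucine transporter, stood at 138, 124 and 30.6 CPM with the control peptide and 20.3, 27.05 and 21.7 CPM with P-T3H2, with a 5-library log2 fold change of -2.51. ASNS, the asparagine synthetase, and PHGDH, of serine synthesis, fell by 1.20 and 0.76, and DDIT4, an inhibitor of mTORC1, by 0.91. Among those that rose were SESN2, GDF15 and SLC7A11, which are named here after their values were seen, by 1.14, 1.19 and 0.37. ATF4 mRNA, also named outside the rule, stood at 443, 396 and 448 CPM against 442, 448 and 416 CPM, a value of 0.05 (95% interval -0.10 to 0.20), though ATF4 is controlled largely at translation. Of the eIF2 kinases that start this response, EIF2AK1 and EIF2AK3 rose by 0.25 and 0.34, EIF2AK2 fell by 0.50, and EIF2AK4, the sensor of uncharged tRNA, did not pass at -0.17 (adjusted p = 0.061). As labelled, 0 of these 4 kinases were called.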

How the data were processed

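RNA sequencing counts were analysed for 6 libraries, grouped by title. The authors deposited whole-number counts and FPKM values for each gene, per the file headers. The submitters' processing notes list StringTie 1.3.3b, HISAT2 2.0.4 and edgeR without giving their roles. They also name a mouse build, whereas the table lists human genes. All 37 synthetase IDs are in GENCODE release 29 (GRCh38), 33 with identical coordinates, so positions are given as GRCh38. Whether counting used strand is not given in the sources used here.

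Differences were tested in edgeR 4.0.16 (R 4.3.3) with TMM scaling, filterByExpr (minimum count 10, total 15) and a robust quasi-likelihood model of treatment alone, with p-values adjusted by Benjamini-Hochberg over all genes tested and a threshold of 0.05. All 37 synthetases passed the filter, and 2 of them enter the counts and medians but are not reported here by name. Standard errors are the log2 fold change divided by the square root of F. Lists were described by counts and medians. No correlation over libraries is given, since the libraries fall into separate clusters. Alternatives used DESeq2 1.42.0, limma 3.58.1 and settings named in the closing section. This procedure was checked on simulated counts, where the share of false calls was above the threshold. With the spread of all 6 libraries, 2-fold changes were only partly recovered. Simulated libraries of a group shared the same mean for each gene, so no control lay with the other group as P-T3H2-2A replicate 3 does. How the test behaves with such a library was therefore not checked. Members and lists were chosen with earlier results of these data known. Genes were named by rule: every synthetase, every gene of a list of up to 12, cell type markers included, and of the longer ATF4 list the 4 of smallest labelled p. Every pair of libraries differed by more than sampling noise, with a chi-square of 11.6 to 97.8 per gene. P-T3H2-2A replicate 3 had values of 12.6 to 13.4 against the P-T3H2 libraries, and of 77.6 and 84.7 against its own group. Pairs of P-T3H2 libraries had values of 11.8 to 13.8.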

Additional observations from a re-analysis of the deposited data

How the results depend on the processing

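Of the 6-library counts, 1 gene was called over the whole table by edgeR, and with DESeq2 117, limma-voom 3, limma-trend with log2(FPKM + 1) 2 and no filter beyond 1 count 4. With the replicate block there were 0; same-numbered libraries had deviations correlated at -0.051, 0.163 and 0.112, so the numbers alone do not pair them. Leaving out each library gave 0 to 7390 genes, 0 to 12 cytosolic and 0 to 10 mitochondrial synthetases, all calls of synthetases coming without P-T3H2-2A replicate 3; 0 synthetases were called under every other setting. The cytosolic median log2 fold change ran from -0.372 to -0.21 and the mitochondrial from -0.303 to -0.189 over left-out libraries, and the mitochondrial was -0.184 and -0.15 with FPKM pseudocounts of 0.1 and 1 in limma-trend, where CARS2 was filtered out. Over left-out libraries QARS1 ran from -0.221 to 0.059 (without P-T3H2-2A replicate 1), RARS1 from -0.067 to 0.042, RARS2 from -0.123 to 0.005 and NARS2 from -0.023 to 0.044.

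With only P-T3H2-2A replicate 3 as control, a comparison added after the data were seen, 62 of 16849 genes (0.368%) and 0 synthetases were called, 732 genes and 0 synthetases at an unadjusted p under 0.05. The cytosolic and mitochondrial medians were -0.013 and 0.001. Values changed sign for EPRS1 (0.049), FARSB (0.047), GARS1 (0.021), KARS1 (0.005), MARS1 (0.079), QARS1 (0.133), VARS1 (0.017), YARS1 (0.032), AARS2 (0.001), LARS2 (0.027), MARS2 (0.028), NARS2 (-0.015), PARS2 (0.091), RARS2 (0.136), TARS2 (0.023), VARS2 (0.053) and WARS2 (0.014).

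The 5-library counts of 12 and 10 were the same with DESeq2 size factors, library totals and limma-voom, and 13 and 8 with DESeq2 (19.1% of all genes lower). Leaving out a further library gave 11 to 14 cytosolic and 7 to 10 mitochondrial calls; a lone control is assumed to vary like the other libraries. RARS1 ran from -0.078 to 0.036 and NARS2 from -0.008 to 0.059 there, and among genes that did not pass FARSA ran from -0.411 to -0.175, NARS1 from -0.563 to -0.191 and QARS1 from -0.412 to -0.011. Calls were lost for MARS1 without P-T3H2-2A replicate 1, for MARS2 without P-T3H2-2A replicate 1 or 2 or P-T3H2 replicate 3, for WARS2 without any but P-T3H2 replicate 2 and for PARS2 without any. NARS1 was gained in DESeq2 and, like QARS1, without P-T3H2-2A replicate 2, and SARS1 and SARS2 without P-T3H2 replicate 2. The causes were not tested. Intervals and counts cover the spread of these libraries.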
